A study of Homo sapiens with 18 samples.

Results

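The 40 genes described here code for glucose transporters, the enzymes of glycolysis, lactate transporters, the kinases that gate entry of pyruvate into mitochondria, the oxygen-sensitive hypoxia-inducible factors (HIF) and a set of HIF target genes. They were chosen by gene symbol, and all 40 were among the 78724 genes of the count table; 26 belong to sugar transport, glycolysis and pyruvate handling and 14 to the HIF system. After genes with low counts were removed, 38 of the 40 were among the 15558 genes tested, and EGLN3 and CA9 were not. RNA was sequenced from THESC cells, an immortalised human endometrial stromal line, after CRISPR engineering with guides directed at the progesterone receptor gene PGR. Promoter cells carried a promoter guide and are labelled dominant for the PGRB isoform; U1U2 cells carried the U1U2 guides and are labelled as holding PGRA and PGRB at equivalent levels; NT cells carried a guide with no target and are labelled wild type. The series title describes activation of the gene, and promoter and U1U2 cells are called the activated lines. Each line received, for 72 hours, 1 µM medroxyprogesterone acetate (MPA), a synthetic progestin, or vehicle, 0.01% ethanol, giving 6 groups of 3 libraries. All 18 cultures were engineered cells kept in charcoal-stripped serum, and the labels do not say whether a line was a single clone or whether replicates came from separate cultures, so a p-value here sets a difference against the scatter of these libraries alone, and that scatter may be technical.

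Glycolysis splits glucose into pyruvate, and most of its steps can be run by more than one isozyme, coded by separate genes. HIF is a transcription factor made of an oxygen-sensitive alpha subunit, HIF1A or EPAS1 (also called HIF-2 alpha), and a stable partner; in low oxygen the alpha subunit escapes prolyl hydroxylation and the factor raises transcription of many of the genes described here. Stromal cells of the endometrium differentiate under progesterone into decidual cells, a change known to involve altered glucose use.

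Library totals ran from 11.9 to 33.4 M counts (median 22.9 M), of which the 40 genes made up 0.537% to 0.631%. Levels are given as CPM, the reads of a gene scaled to library size with edgeR's TMM factors. PGR, the activated gene, stood at 264, 303 and 280.3 CPM in promoter MPA libraries and 433, 475 and 395 in promoter vehicle libraries, at 291, 264 and 226 CPM in U1U2 MPA libraries and 674, 531 and 584 in U1U2 vehicle libraries, and at 95.1, 82.3 and 76.2 CPM in NT MPA libraries and 120.0, 153 and 147 in NT vehicle libraries. All 12 libraries of the activated lines thus exceeded all 6 NT libraries in PGR. Stromal markers were abundant (COL1A1 at 1734 to 4085 CPM), while EPCAM had 3 to 34 counts a library, PECAM1 at most 4, and CD3E none. Summed over 5 leukocyte markers the level was 1.59 to 2.41 CPM in MPA libraries and 3.59 to 5.57 CPM in vehicle libraries; over 5 endothelial markers it was 42.3 to 50.6 CPM in MPA libraries and 55.2 to 74.9 CPM in vehicle libraries, nearly all of it TEK; over 8 epithelial markers it was 21.2 to 42.1 CPM in MPA libraries and 29.3 to 53.5 CPM in vehicle libraries, mostly keratins. The part of these cells or genes in the results was not tested.

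With MPA, a minority of the 38 tested genes passed the test, among them HIF1A, LDHA and NDRG1, which rose, and ENO2, PDK3 and PFKFB2, which fell. In promoter cells 4 were higher and 10 lower with MPA (36.8% of the 38), against 15.0% of all 15558 genes (6.63% higher, 8.40% lower). In U1U2 cells 3 were higher and 6 lower (23.7%), against 11.7% of all genes (5.44% higher, 6.22% lower). In NT cells NDRG1 alone was called, higher (2.63%), against 5.93% of all genes (2.44% higher, 3.48% lower). Calls were made with edgeR's quasi-likelihood test at a Benjamini-Hochberg adjusted p below 0.05, over all genes tested. This is called the main fit. The median log2 fold change of the 38 was -0.16 in promoter cells, -0.04 in U1U2 cells and 0.03 in NT cells, with all genes at 0.00, 0.03 and 0.02 in the same lines. The 3 lines together gave 15 called genes, 39.5% of the 38, against 19.1% of all genes. Of these, 8 were called in both activated lines and in the same direction (21.1% of the 38), against 8.74% of all genes. Single libraries moved the promoter and NT counts by more than 1.5 times. The promoter count of 14 was 8 when promoter vehicle replicate 1 was left out and 9 when promoter MPA replicate 2 or 3 was. Calls over all genes there were 2339 of 15558 with every library. In those fits they were 1565 of 15896, 1637 of 15894 and 1699 of 15908. The U1U2 count of 9 was 6 to 10 over its leave-one-out fits. Calls over all genes there ran from 1267 to 1921, against 1814 with every library. The NT count of 1 was 4 without NT vehicle replicate 1 and 2 without NT MPA replicate 1. Calls over all genes in those NT fits were 972 of 15861 and 820 of 15893, against 922 of 15558 with every library. Because these are bulk libraries, a lower level can reflect fewer cells that express a gene or less RNA per cell, and these cannot be told apart.

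**Figure D1:**
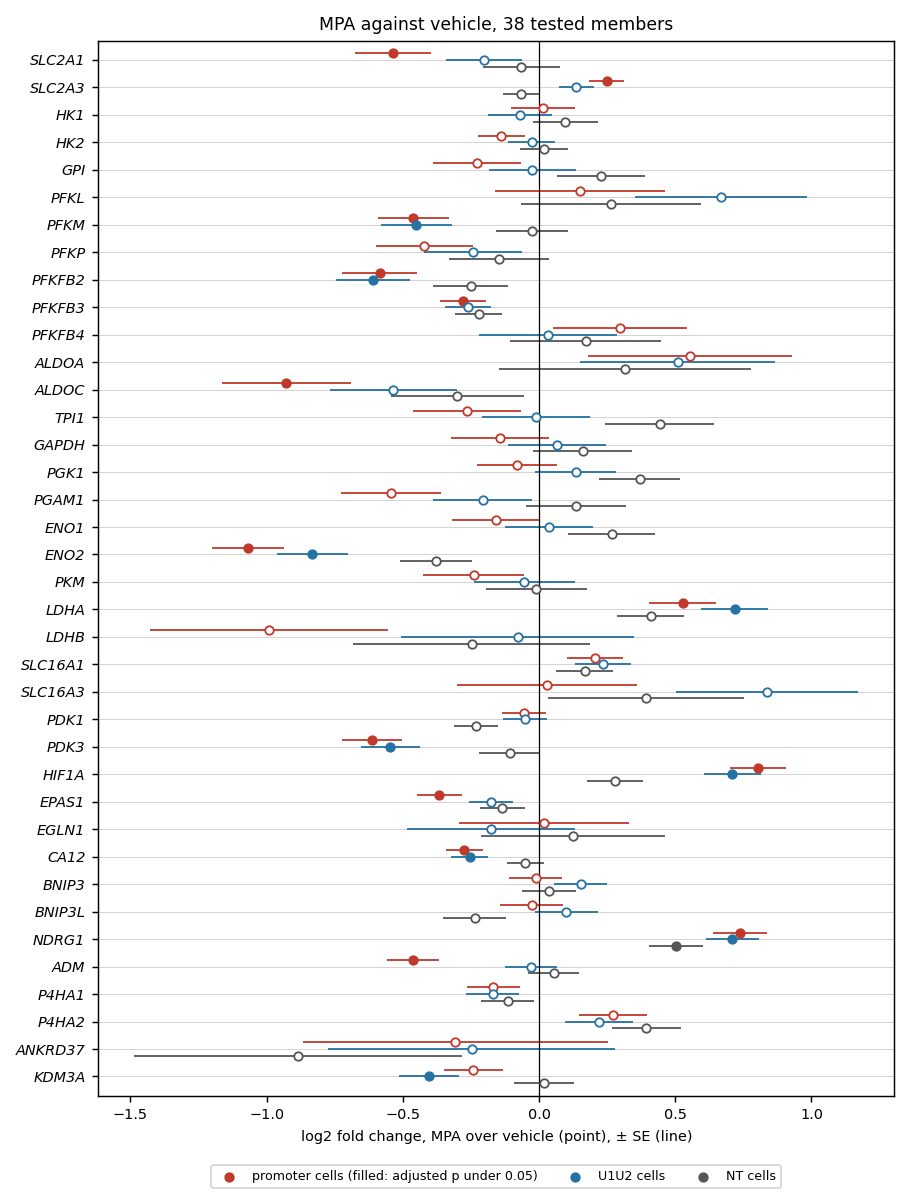
Log2 fold change, MPA over vehicle (x axis), for the 38 tested genes (y axis, ordered by role) in promoter, U1U2 and NT cells, 3 libraries against 3 in each line. Lines are ± 1 SE and filled points have an adjusted p under 0.05; the filled points number 14 in promoter cells, 9 in U1U2 cells and 1 in NT cells.

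The genes of the HIF alpha subunits moved apart. HIF1A (chr14:61695513-61748259, GRCh38, plus strand), the alpha subunit found in nearly all cells, read 956, 1019 and 1024 CPM in promoter MPA libraries, against 498, 629 and 592 CPM in promoter vehicle libraries. In U1U2 cells its values were 965, 1038 and 902 CPM with MPA and 689, 520.4 and 567 CPM with vehicle. NT libraries held 926, 846 and 880.4 CPM with MPA and 728, 741 and 716 CPM with vehicle. MPA libraries lay above vehicle libraries in every line, with no overlap, but the gene passed the test only in the activated lines: log2 fold change 0.80 ± 0.10 in promoter cells (adjusted p = 2.05e-05), 0.71 ± 0.10 in U1U2 cells (adjusted p = 1.06e-04) and 0.28 ± 0.10 in NT cells (adjusted p = 0.15), each ± SE. With offsets for GC content and gene length the NT value was 0.40 ± 0.10 and was called (adjusted p = 0.0107).

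EPAS1 (chr2:46293667-46386703, GRCh38, plus strand), the alpha subunit known from endothelial and other specialised cells, read 404, 375 and 353 CPM in promoter MPA libraries, against 451, 546 and 463 CPM in promoter vehicle libraries. U1U2 libraries held 468, 433 and 455 CPM with MPA and 531, 481 and 518 CPM with vehicle. NT libraries had 529, 532 and 538 CPM with MPA and 613, 573 and 571 CPM with vehicle. Here the MPA libraries were the lower ones in every line without overlap, and the fall passed the test in promoter cells (-0.37 ± 0.08, adjusted p = 0.00443), with -0.18 ± 0.08 in U1U2 cells and -0.13 ± 0.08 in NT cells. Of the prolyl hydroxylases that mark the alpha subunits for destruction, EGLN1 had 6 to 27 counts a library and passed in no line (0.02 ± 0.31, -0.18 ± 0.31 and 0.13 ± 0.34 in promoter, U1U2 and NT cells), and EGLN3, with at most 8 counts, was not tested. The reason for the low EGLN1 counts was not tested, and they are not read as its expression.

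HIF acts through a short DNA element whose core reads ACGTG or GCGTG. LDHA and ENO2 are glycolytic genes called in both activated lines, 1 higher and 1 lower. Sequences just upstream of a transcription start are shown for these genes and for HIF1A and EPAS1. Each is the 250 bases before a RefSeq transcription start (GRCh38.p14, plus strand, 5′ to 3′), and capitals mark every core match on either strand, overlapping matches joined: HIF1A at chr14:61695263-61695512, EPAS1 at chr2:46297157-46297406, LDHA at chr11:18394313-18394562 and ENO2 at chr12:6914330-6914579.
HIF1A: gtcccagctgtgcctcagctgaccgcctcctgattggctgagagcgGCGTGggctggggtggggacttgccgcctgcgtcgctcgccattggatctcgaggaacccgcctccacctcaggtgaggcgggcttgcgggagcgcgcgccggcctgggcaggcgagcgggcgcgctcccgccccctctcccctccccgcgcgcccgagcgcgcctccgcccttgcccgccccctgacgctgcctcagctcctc
EPAS1: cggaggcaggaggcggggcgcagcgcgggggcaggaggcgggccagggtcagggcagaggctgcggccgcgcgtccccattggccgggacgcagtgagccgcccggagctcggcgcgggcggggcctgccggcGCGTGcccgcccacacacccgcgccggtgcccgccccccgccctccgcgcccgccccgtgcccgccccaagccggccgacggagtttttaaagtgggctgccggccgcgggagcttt
LDHA: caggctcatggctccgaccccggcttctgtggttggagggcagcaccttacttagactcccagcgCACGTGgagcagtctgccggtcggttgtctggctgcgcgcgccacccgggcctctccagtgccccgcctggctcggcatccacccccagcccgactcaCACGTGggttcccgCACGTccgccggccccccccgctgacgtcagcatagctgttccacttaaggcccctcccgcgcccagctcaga
ENO2: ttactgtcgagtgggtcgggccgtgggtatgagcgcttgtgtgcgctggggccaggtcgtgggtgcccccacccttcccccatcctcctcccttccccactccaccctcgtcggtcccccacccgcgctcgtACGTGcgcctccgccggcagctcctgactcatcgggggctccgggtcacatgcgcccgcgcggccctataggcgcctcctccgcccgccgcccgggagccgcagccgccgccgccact
The windows of EPAS1 and ENO2 lie inside the gene spans given for them, and that of LDHA lies partly inside. LDHA holds 5 core matches in this window, at 3 places because matches on both strands overlap, and the other 3 genes 1 each. A core lay in 38 of the 63 RefSeq start windows matched to 35 of the 40 genes (60.3%), against 15172 of 35116 windows of the same length over all genes (43.2%). By gene, 29 of the 35 had a core in at least 1 window. The steroid receptor half-site AGAACA, searched on both strands, lay in 3 of the 63 windows (4.76%), against 12.4% of all windows. These are letter matches and not measured binding. LDHA, which rose, and ENO2, which fell, each hold a core, and SLC2A1 holds none in its 1 window. Sequence outside the 250-base windows was not searched. A link between cores and the direction of change was not tested.

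HIF target genes did not move as a block. NDRG1 (chr8:133237171-133302022, GRCh38, minus strand), a stress-induced gene used as a marker of hypoxia, was the 1 gene of the 40 called in all 3 lines. It read 77.1, 71.6 and 67.96 CPM in promoter MPA libraries, against 43.8, 42.4 and 43.7 CPM in promoter vehicle libraries. U1U2 libraries had 66.5, 69.03 and 79.9 CPM with MPA and 43.1, 46.2 and 42.5 CPM with vehicle. NT libraries had 63.5, 76.3 and 63.8 CPM with MPA and 54.4, 44.5 and 45.2 CPM with vehicle. MPA libraries exceeded vehicle libraries without overlap in each line, with log2 fold changes of 0.74 ± 0.10, 0.71 ± 0.10 and 0.50 ± 0.10 in promoter, U1U2 and NT cells (adjusted p = 2.84e-05, 5.52e-05 and 0.00337). Fitted on the NT libraries alone, the NT value missed the threshold (adjusted p = 0.0631).

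ADM, which codes for the vasodilator peptide adrenomedullin, fell in promoter cells. It read 94.3, 84.6 and 77.4 CPM in promoter MPA libraries and 118, 124 and 111 CPM in promoter vehicle libraries, a log2 fold change of -0.46 ± 0.09 (adjusted p = 0.00212). MPA and vehicle libraries overlapped in U1U2 cells (109, 94.1 and 104 CPM with MPA, 93.5, 114 and 106 with vehicle) and in NT cells (106, 111 and 122 CPM with MPA, 115, 102 and 109.7 with vehicle). CA12, a membrane carbonic anhydrase that helps cells export acid, fell in both activated lines, to 146, 142 and 149 CPM in promoter MPA libraries, against 183, 175 and 171 CPM with vehicle (-0.27 ± 0.07), and to 112, 125 and 129.7 CPM in U1U2 MPA libraries, against 143, 154 and 142 CPM with vehicle (-0.25 ± 0.07). NT libraries overlapped, at 133, 137 and 136 CPM with MPA and 142, 135 and 143 CPM with vehicle. Of 12 alternative fits, the CA12 call was lost in 3 in promoter cells and in 5 in U1U2 cells. Among these were the fits without promoter vehicle replicate 1 or promoter MPA replicate 2, and those without U1U2 vehicle replicate 2 or U1U2 MPA replicate 1. CA9, the carbonic anhydrase best known as a hypoxia marker, had 0 to 7 counts in the 18 libraries. KDM3A, a histone demethylase and HIF target, fell in U1U2 cells, with 56.4, 45.3 and 43.5 CPM with MPA and 57.1, 65.5 and 69.3 CPM with vehicle (-0.40 ± 0.11, adjusted p = 0.0195). Promoter libraries, which did not overlap, read 44.1, 45.7 and 46.01 CPM with MPA and 55.4, 55.2 and 49.96 CPM with vehicle (-0.24 ± 0.11, adjusted p = 0.165). With GC and length offsets the promoter fall passed (-0.29 ± 0.09, adjusted p = 0.0341). NT libraries did overlap, at 53.3, 47.9 and 60.1 CPM with MPA and 48.1, 53.8 and 57.00 CPM with vehicle. The U1U2 call was lost without U1U2 vehicle replicate 2 or 3 or U1U2 MPA replicate 2 or 3. The mitophagy receptors BNIP3 and BNIP3L, the collagen prolyl hydroxylases P4HA1 and P4HA2 and the low-count gene ANKRD37 passed in no line of the main fit. The P4HA2 rise in NT cells passed without the count filter (0.41 ± 0.11, adjusted p = 0.00944).

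The glucose transporters also moved in opposite directions, in promoter cells. SLC2A1 (GLUT1), the widespread basal glucose transporter, read 62.4, 56.2 and 52.1 CPM in promoter MPA libraries, against 89.5, 78.95 and 78.7 CPM with vehicle, and fell by 0.53 ± 0.14 on the log2 scale (adjusted p = 0.0132). SLC2A3 (GLUT3; chr12:7919230-7936275, GRCh38, minus strand), a transporter with high affinity for glucose, read 159, 160.2 and 165 CPM in promoter MPA libraries, against 129, 139.6 and 139 CPM with vehicle, and rose by 0.25 ± 0.06 (adjusted p = 0.0126). Neither gene passed in the other lines of the main fit. With GC and length offsets SLC2A3 passed in U1U2 cells (0.21 ± 0.07, adjusted p = 0.0444). U1U2 cells had SLC2A1 at 60.02, 55.6 and 69.9 CPM with MPA and 63.3, 75.8 and 74.4 CPM with vehicle, and SLC2A3 at 116, 131 and 127 CPM with MPA and 115, 112 and 113 CPM with vehicle. NT cells had SLC2A1 at 57.5, 67.9 and 66.7 CPM with MPA and 85.9, 61.7 and 53.9 CPM with vehicle, with overlap, and SLC2A3 at 98.03, 98.4 and 99.8 CPM with MPA and 99.4, 104 and 107 CPM with vehicle. The promoter-cell calls did not hold in every leave-one-out fit: SLC2A1 and SLC2A3 were both lost when vehicle replicate 1 or MPA replicate 3 of promoter cells was left out, and SLC2A1 also when MPA replicate 2 was.

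SLC2A14 is a near-identical neighbouring copy of SLC2A3, and reads of the pair can be hard to tell apart. SLC2A14 had 257, 222 and 215 counts in promoter MPA libraries, against 5, 4 and 7 in promoter vehicle libraries. U1U2 MPA libraries had 26, 25 and 31 counts, against 1, 6 and 5 with vehicle, and the NT libraries 0 to 4. The log2 fold change with MPA was 5.55 ± 0.36 in promoter cells (adjusted p = 4.0e-09) and 2.97 ± 0.44 in U1U2 cells (adjusted p = 0.00013), and within MPA promoter cells exceeded U1U2 cells by 3.03 ± 0.28 (adjusted p = 2.1e-05). How the authors' counting divided reads between the copies is not given in the sources used here, so both are uncertain.

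In the upper part of the pathway, the calls fell on regulators and on 1 phosphofructokinase. PFKFB2 and PFKFB3 make fructose 2,6-bisphosphate, the activator of phosphofructokinase. PFKFB2 read 24.7, 26.2 and 24.7 CPM in promoter MPA libraries and 40.7, 40.7 and 32.2 CPM with vehicle (-0.58 ± 0.14), and 34.5, 27.1 and 25.9 CPM in U1U2 MPA libraries and 37.4, 47.3 and 48.4 CPM with vehicle (-0.61 ± 0.14), and fell in both lines without overlap. NT libraries overlapped, at 29.8, 30.1 and 40.04 CPM with MPA and 39.8, 39.5 and 39.1 CPM with vehicle. PFKFB3 was at 26.4, 26.9 and 26.96 CPM in promoter MPA libraries and 33.4, 32.1 and 31.9 CPM with vehicle. Its fall there of 0.28 ± 0.08 on the log2 scale was close to the values of -0.26 ± 0.09 in U1U2 cells and -0.22 ± 0.09 in NT cells. The U1U2 and NT values did not pass in the main fit (adjusted p = 0.0321, 0.0571 and 0.18 in promoter, U1U2 and NT cells). The promoter call was lost without any 1 of the 6 promoter libraries. In U1U2 cells the fall passed under DESeq2 (adjusted p = 0.019) and with GC and length offsets (adjusted p = 0.0444). The NT fall passed with the offsets (-0.28 ± 0.07, adjusted p = 0.0191). PFKFB3 read 24.6, 24.4 and 27.6 CPM with MPA and 28.8, 31.7 and 31.1 CPM with vehicle in U1U2 libraries. NT libraries had 22.8, 24.9 and 26.4 CPM with MPA and 31.1, 27.97 and 27.4 CPM with vehicle, and MPA libraries were lower without overlap in these lines too. PFKM, the muscle-type phosphofructokinase, read 70.2, 60.6 and 56.9 CPM in promoter MPA libraries and 95.4, 82.7 and 80.3 CPM with vehicle (-0.46 ± 0.13), and 67.2, 53.95 and 74.8 CPM in U1U2 MPA libraries and 79.2, 99.3 and 89.3 CPM with vehicle (-0.45 ± 0.13), without overlap in either line. In NT libraries, at 70.7, 82.6 and 82.1 CPM with MPA and 93.4, 72.8 and 73.7 CPM with vehicle, the groups overlapped. Both PFKM falls were lost in some leave-one-out fits: in promoter cells on removal of vehicle replicate 1 or MPA replicate 2 or 3, and in U1U2 cells on removal of vehicle replicate 2 or 3 or MPA replicate 1 or 2. The hexokinases HK1 and HK2, the isomerase GPI, PFKL, PFKP and PFKFB4 passed in no line of the main fit. The PFKP fall in promoter cells passed without the count filter (-0.44 ± 0.13, adjusted p = 0.0221). It also passed with GC and length offsets (-0.37 ± 0.10, adjusted p = 0.0139). The PFKL rise in U1U2 cells passed without the filter (0.66 ± 0.19, adjusted p = 0.0125).

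ALDOC, the brain-type aldolase, fell in promoter cells to 3.58, 2.74 and 2.39 CPM with MPA, against 6.16, 4.52 and 5.82 CPM with vehicle (-0.93 ± 0.24, adjusted p = 0.0111), a call lost when vehicle replicate 1 or MPA replicate 2 or 3 of that line was left out. U1U2 libraries read 2.58, 3.12 and 4.57 CPM with MPA and 4.38, 5.81 and 4.79 CPM with vehicle. NT libraries had 3.55, 4.39 and 3.58 CPM with MPA and 6.53, 4.34 and 3.60 CPM with vehicle, with overlap in U1U2 and NT cells. With GC and length offsets the ALDOC fall passed in U1U2 cells (-0.54 ± 0.16, adjusted p = 0.0256). TPI1, the triose phosphate isomerase, passed in no line of the main fit. Its rise in NT cells passed without the count filter (0.46 ± 0.11, adjusted p = 0.00213). ALDOA, the aldolase of most tissues, had only 3 to 23 counts in a library. Per kilobase of exon it stood at a median of 0.122 CPM, while the glycolytic genes TPI1 and GAPDH stood at 51.9 and 136 CPM per kilobase. The reason for this low ALDOA value was not tested, and its level is not read as the expression of that enzyme.

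Of the 6 genes for the steps that turn triose phosphates into pyruvate, 1 was called, a share near the 19.1% of all genes called in at least 1 line. ENO2 (chr12:6913745-6923698, GRCh38, plus strand), the neuron-type enolase, read 19.2, 16.9 and 15.98 CPM in promoter MPA libraries, against 40.8, 34.6 and 33.8 CPM with vehicle. U1U2 libraries held 17.3, 18.6 and 19.5 CPM with MPA and 28.2, 37.4 and 32.96 CPM with vehicle. NT libraries had 18.9, 23.2 and 23.3 CPM with MPA and 33.1, 25.5 and 26.6 CPM with vehicle. MPA libraries were lower without overlap in all 3 lines, and the gene passed in promoter cells (-1.07 ± 0.13, adjusted p = 1.07e-05) and U1U2 cells (-0.83 ± 0.13, adjusted p = 2.13e-04) but not in NT cells (-0.38 ± 0.13, adjusted p = 0.122). With GC and length offsets the NT value was -0.45 ± 0.09 and passed (adjusted p = 0.00282). ENO1, the enolase of most tissues, read 355, 318 and 331 CPM with MPA and 409.8, 400.2 and 310.0 CPM with vehicle in promoter libraries. The ENO1 values were 347, 306 and 374 CPM with MPA and 291, 379.7 and 331 CPM with vehicle in U1U2 libraries. In NT libraries they were 282, 342 and 396 CPM with MPA and 365, 236 and 247 CPM with vehicle, and the groups overlapped in each line. ENO1 gave -0.16 ± 0.16, 0.04 ± 0.16 and 0.27 ± 0.16 in promoter, U1U2 and NT cells and passed in none. GAPDH, PGK1, PGAM1 and PKM passed in no line of the main fit either. The PGAM1 fall in promoter cells passed without the count filter (-0.56 ± 0.12, adjusted p = 7.27e-05). It also passed under DESeq2 (adjusted p = 0.0437) and with GC and length offsets (adjusted p = 0.0285). The PGK1 rise in NT cells passed without the filter (0.39 ± 0.11, adjusted p = 0.015). GAPDH, often used as a reference gene, ranged from 316 to 524 CPM over the 18 libraries.

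At the end of the pathway LDHA (chr11:18394388-18408425, GRCh38, plus strand), the subunit of lactate dehydrogenase that favours lactate formation, rose in the activated lines. Its values were 949, 969 and 1029.7 CPM in promoter MPA libraries and 711, 750.0 and 584 CPM in promoter vehicle libraries. U1U2 libraries read 1142, 943 and 905 CPM with MPA and 572, 636 and 609.7 CPM with vehicle. NT libraries had 678, 668 and 902 CPM with MPA and 607, 537 and 547 CPM with vehicle. The groups did not overlap in any line, and the log2 fold changes were 0.53 ± 0.12 (adjusted p = 0.00589), 0.72 ± 0.12 (adjusted p = 5.28e-04) and 0.41 ± 0.12 (adjusted p = 0.0596) in promoter, U1U2 and NT cells. The NT value passed under DESeq2 (adjusted p = 0.0406), without the count filter (adjusted p = 0.00231) and with GC and length offsets (adjusted p = 0.0205). LDHB, the heart-type subunit, was scarce and variable at 7.47 to 28.1 CPM, with -0.99 ± 0.44 in promoter cells, and passed in no line. It read 9.11, 9.51 and 8.04 CPM with MPA and 17.4, 26.9 and 9.55 CPM with vehicle in promoter libraries. The LDHB values were 24.6, 10.4 and 7.47 CPM with MPA and 12.9, 11.3 and 20.3 CPM with vehicle in U1U2 libraries. In NT libraries they were 12.8, 12.7 and 22.2 CPM with MPA and 28.1, 18.2 and 10.1 CPM with vehicle, with overlap in U1U2 and NT cells. The lactate transporters SLC16A1 (MCT1) and SLC16A3 (MCT4) passed in no line of the main fit. With GC and length offsets SLC16A1 passed, higher, in U1U2 cells (adjusted p = 0.0142) and promoter cells (adjusted p = 0.0375). SLC16A3 passed, higher, in U1U2 cells with the offsets (adjusted p = 0.0255) and without the count filter (adjusted p = 0.00338). PDK3, a kinase that switches off pyruvate dehydrogenase and so holds pyruvate out of mitochondria, fell in both activated lines, to 7.98, 8.98 and 7.90 CPM in promoter MPA libraries, against 13.5, 12.7 and 11.8 CPM with vehicle (-0.61 ± 0.11, adjusted p = 6.91e-04), and to 11.2, 9.73 and 8.86 CPM in U1U2 MPA libraries, against 14.6, 14.1 and 14.8 CPM with vehicle (-0.55 ± 0.11, adjusted p = 0.00231). NT libraries overlapped, at 11.1, 11.6 and 12.4 CPM with MPA and 12.1, 13.6 and 11.99 CPM with vehicle. PDK1, the kinase of the same family known as a HIF target, passed in no line of the main fit and overlapped in each. It read 42.7, 44.1 and 46.3 CPM with MPA and 43.2, 47.6 and 47.6 CPM with vehicle in promoter libraries. The PDK1 values were 47.1, 47.2 and 44.5 CPM with MPA and 48.9, 45.9 and 49.1 CPM with vehicle in U1U2 libraries. In NT libraries they were 41.5, 39.1 and 38.5 CPM with MPA and 41.2, 48.5 and 49.99 CPM with vehicle.

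**Figure D2:**
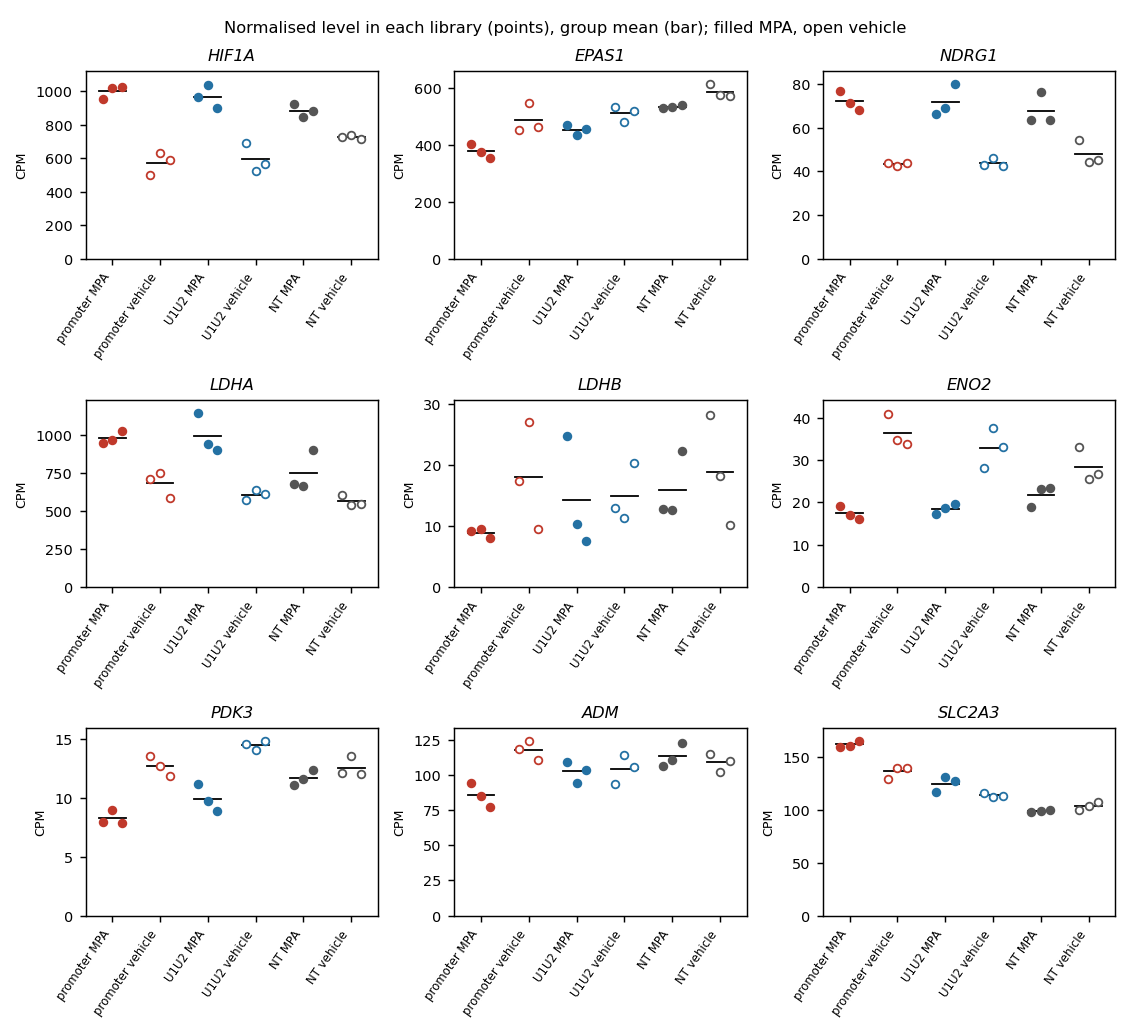
Normalised level (CPM, y axis from 0) of 9 genes in each of the 18 libraries, by line and treatment (x axis); bars are group means of 3 libraries, filled points MPA and open points vehicle. HIF1A, NDRG1 and LDHA are higher and ENO2 and EPAS1 lower in MPA than in vehicle libraries of every line, without overlap.

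Related genes of 1 step were compared within each library as the log2 ratio of their counts, so that library scaling cancels. A library's trend with GC content does not cancel in this way. Of 16 pairs, 14 could be tested. The test was an exact two-sided permutation of treatment within each line (8000 arrangements, smallest possible p = 0.00025), on the mean difference over the 3 lines. Of the 14 pairs, 11 had an unadjusted p under 0.05. Other gene pairs were not tested in this way, so whether this count exceeds that of gene pairs in general is not known. The pairs were not independent, as PFKL and PFKFB3 each entered more than 1, and several pairs held a gene called alone. ENO2 to ENO1 shifted by -0.81 ± 0.06 (exact p = 0.00025, the smallest possible) and HIF1A to EPAS1 by 0.83 ± 0.06 (exact p = 0.00025, the smallest possible), and in both pairs MPA and vehicle libraries did not overlap in any line. The log2 ratio of HIF1A to EPAS1 was 1.24, 1.44 and 1.53 in promoter MPA libraries, against 0.14, 0.20 and 0.35 with vehicle. In NT cells it was 0.81, 0.67 and 0.71 with MPA and 0.25, 0.37 and 0.33 with vehicle, the smallest separation of the 3 lines. LDHA to LDHB shifted by 0.97 ± 0.24 (exact p = 0.00225), and its groups were free of overlap only in promoter cells. P4HA1 and P4HA2 are subunits of the enzyme that hydroxylates collagen. Their ratio shifted by -0.45 ± 0.10 (exact p = 0.00075), in the same direction in all 3 lines. Neither gene passed alone in the main fit. In every group the library with the highest correlation of level with GC content had the lowest ratio of P4HA1 to P4HA2. In NT vehicle libraries the ratio was 1.66, 2.16 and 2.15, and that correlation was 0.33, -0.33 and -0.42. The part of GC content in the shift was not tested.

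Phosphofructokinase pairs also separated: PFKP to PFKL by -0.61 ± 0.12 (exact p = 0.00075) and PFKM to PFKL by -0.65 ± 0.18 (exact p = 0.005). PFKL was scarce, at 4.78 to 13.4 CPM. The ratio of PDK1 to PDK3 shifted by 0.56 in promoter cells and 0.49 in U1U2 cells but by -0.12 in NT cells (mean 0.31 ± 0.06, exact p = 0.0112). SLC2A1 to SLC2A3 likewise shifted by -0.78 in promoter cells, -0.34 in U1U2 cells and 0.02 in NT cells (mean -0.37 ± 0.10, exact p = 0.0173). Shifts were also found for PFKFB3 to PFKFB4 (-0.42 ± 0.13, exact p = 0.006) and PFKFB3 to PFKFB2 (0.23 ± 0.08, exact p = 0.0165); ALDOC to ALDOA (-1.12 ± 0.22, exact p = 0.0005) rests on the few ALDOA counts. For HK2 to HK1 (-0.06 ± 0.08, exact p = 0.396), BNIP3 to BNIP3L (0.11 ± 0.08, exact p = 0.189) and SLC16A3 to SLC16A1 (0.18 ± 0.27, exact p = 0.495) no shift was detectable.

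**Figure D3:**
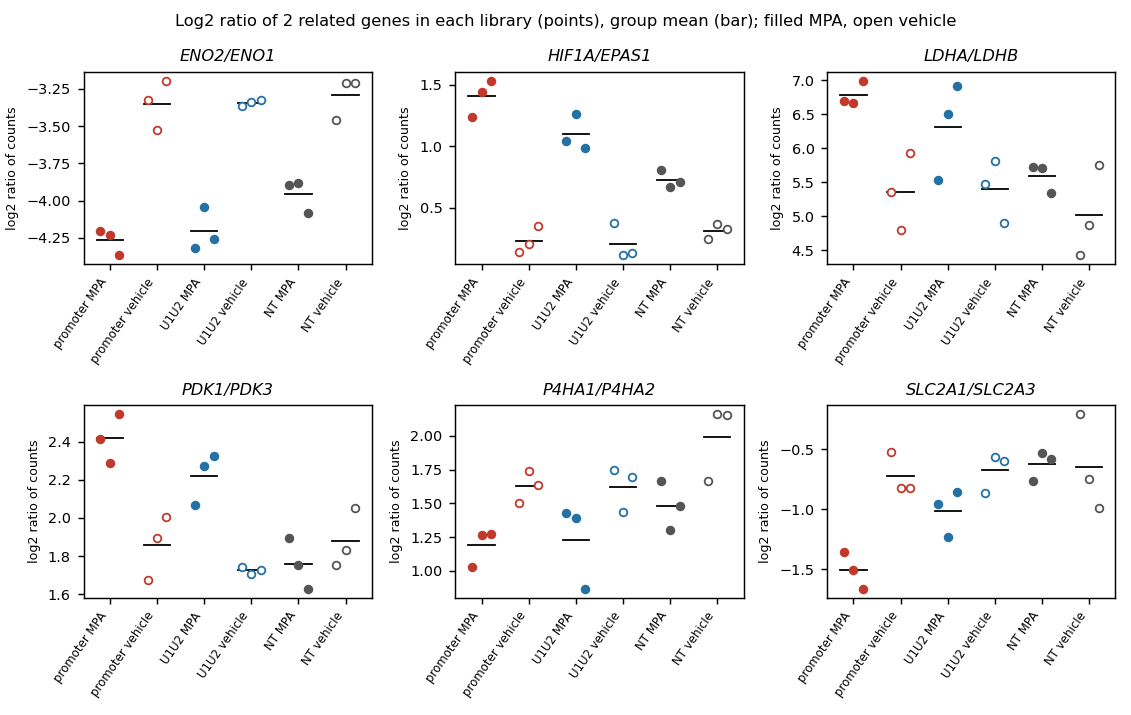
Log2 ratio of the counts of 2 related genes (y axis, not starting at 0) in each of the 18 libraries by line and treatment (x axis), with group means of 3 as bars; filled points MPA, open points vehicle. The ratios of ENO2 to ENO1 and HIF1A to EPAS1 separate MPA from vehicle libraries in all 3 lines, those of PDK1 to PDK3 and P4HA1 to P4HA2 in the activated lines, and that of SLC2A1 to SLC2A3 in promoter cells.

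Between lines, few of the 38 genes differed in the main fit. In vehicle, 2 were higher there in promoter than NT cells and none lower (5.26%), against 6.75% of all genes. They were SLC2A3 (129, 139.6 and 139 CPM in promoter vehicle libraries, 99.4, 104 and 107 in NT vehicle libraries; 0.39 ± 0.06, adjusted p = 0.00117) and CA12 (183, 175 and 171 CPM in promoter vehicle libraries, 142, 135 and 143 in NT vehicle libraries; 0.33 ± 0.07, adjusted p = 0.00594). The count of 2 was 10 without NT vehicle replicate 1 and 4 without promoter vehicle replicate 2 or 3. Calls over all genes were 1050 of 15558 with every library. In those fits they were 1347 of 15861, 715 of 15911 and 1248 of 15860. Without NT vehicle replicate 1 the count of the listed genes thus rose more than that of all genes. HIF1A and EPAS1 were lower in promoter than NT vehicle libraries without overlap, but were not called in the main fit. Both passed under DESeq2 (HIF1A -0.35 ± 0.11, adjusted p = 0.0257, and EPAS1 -0.27 ± 0.08, adjusted p = 0.0194). EPAS1 also passed with GC and length offsets (-0.31 ± 0.08, adjusted p = 0.0248), as did BNIP3L, lower, and TPI1 and ENO2, higher. Without the count filter GPI, PFKP, TPI1, PGK1, PGAM1 and ENO1 passed, all higher. No gene was called between U1U2 and NT cells in vehicle (1.14% of all genes). There, 4 had an unadjusted p under 0.05 (16.2% of all genes) and DESeq2 called 0 (2.96% of all genes). Without U1U2 vehicle replicate 1 there was 1 call, HIF1A, lower (-0.42 ± 0.10, adjusted p = 0.0365). Calls over all genes in that fit were 639 of 15890, against 178 of 15558 with every library. None was called between promoter and U1U2 cells in vehicle (0.784% of all genes), with 3 at an unadjusted p under 0.05 (8.67% of all genes) and 2, SLC2A3 and CA12, called by DESeq2 (1.78% of all genes).

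Under MPA, promoter cells differed from NT cells in 4 of the 38 genes in the main fit (10.5%), against 4.15% of all genes. SLC2A3 was higher, with 159, 160.2 and 165 CPM in promoter MPA libraries and 98.03, 98.4 and 99.8 CPM in NT MPA libraries (0.71 ± 0.06, adjusted p = 1.35e-06). EPAS1 (-0.50 ± 0.08, adjusted p = 9.31e-04), PDK3 (-0.49 ± 0.11, adjusted p = 0.0136) and ADM (-0.40 ± 0.09, adjusted p = 0.0177) were lower, each without overlap of the libraries. Without promoter MPA replicate 3 the count was 2 (390 of 15908 over all genes), with PDK3 and ADM lost. The PDK3 call was also lost without NT MPA replicate 3 or promoter MPA replicate 1. The ADM call was also lost without NT MPA replicate 2 or 3 or promoter MPA replicate 2. In the main fit U1U2 cells exceeded NT cells in SLC2A3 alone (0.34 ± 0.06, adjusted p = 0.00805), or 2.63% of the 38 against 1.72% of all genes. Promoter cells exceeded U1U2 cells in that fit, again in SLC2A3 alone (0.37 ± 0.06, adjusted p = 0.0135), or 2.63% against 0.328%. SLC2A3 was thus ordered promoter, U1U2, NT under MPA with no overlap of neighbours. The U1U2 call was lost without NT MPA replicate 2 or U1U2 MPA replicate 2. Without NT MPA replicate 3, 2 genes were called (194 of 15908 over all genes). The promoter call was lost without U1U2 MPA replicate 1 or any promoter MPA library. With GC and length offsets LDHA passed, higher than in NT cells, in U1U2 (0.44 ± 0.10, adjusted p = 0.021) and promoter cells (0.44 ± 0.10, adjusted p = 0.013). It also passed in both without the count filter (adjusted p = 0.00492 and 0.00762). Without the filter LDHB was lower in promoter than NT cells (-0.81 ± 0.16, adjusted p = 1.17e-04) and than U1U2 cells (-0.67 ± 0.16, adjusted p = 0.0271).

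The difference between lines in their MPA response was tested directly, and no gene of the 38 passed. For promoter minus NT cells 1.56% of all genes passed; of the 38, 11 had an unadjusted p under 0.05 (14.8% of all genes did), and DESeq2 called SLC2A3, ENO2, HIF1A and ADM, 4 in all (3.63% of all genes). The nearest in edgeR's test were ADM (-0.52 ± 0.13, adjusted p = 0.0646), ENO2 (-0.69 ± 0.19, adjusted p = 0.0768) and HIF1A (0.52 ± 0.15, adjusted p = 0.0918). Without NT vehicle replicate 1 there were 2 calls, and 262 of 15861 over all genes. For U1U2 minus NT cells (0.219% of all genes) 6 had an unadjusted p under 0.05 (10.0% of all genes), and for promoter minus U1U2 cells (0.0129% of all genes) 1 did (5.17% of all genes). DESeq2 called 0 of the genes in both comparisons (0.718% and 0.416% of all genes).

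**Figure D4:**
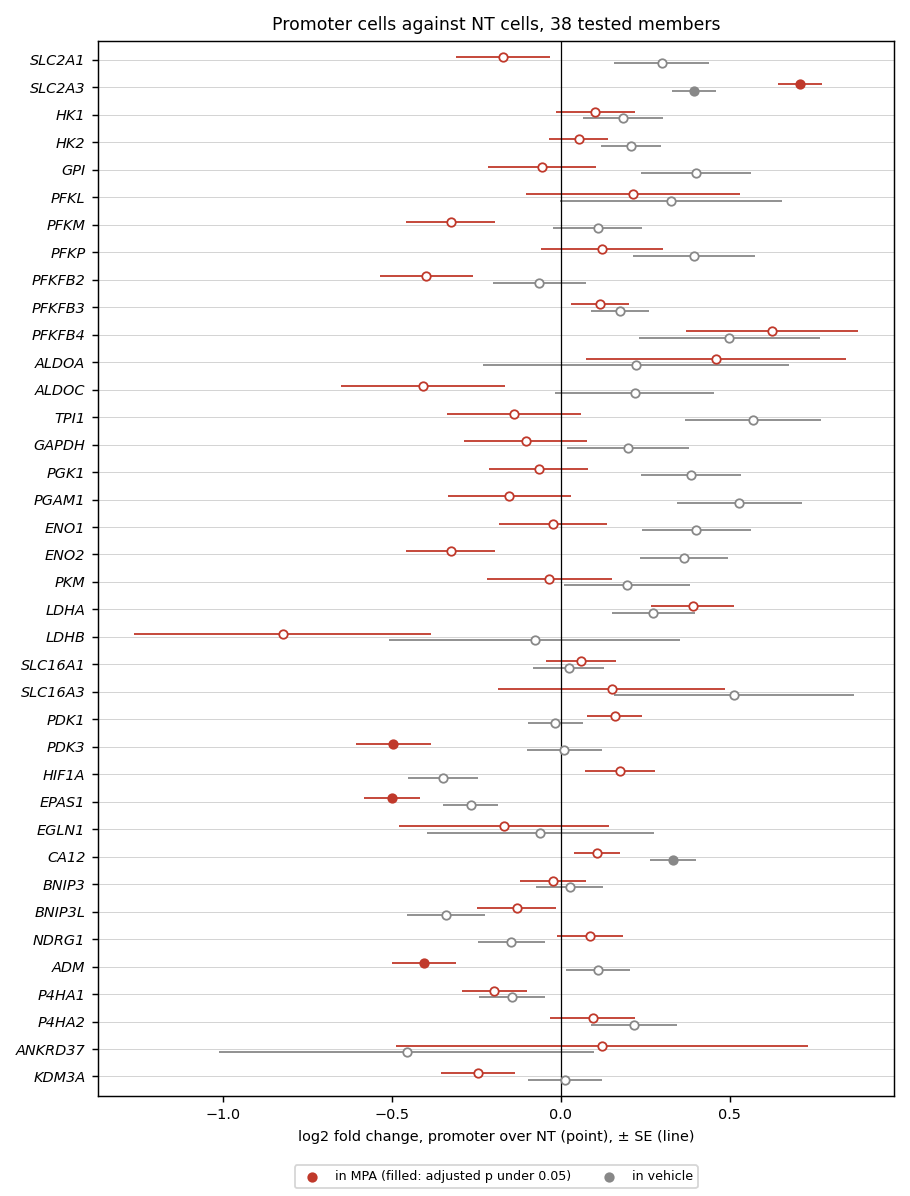
Log2 fold change, promoter over NT cells (x axis), for the 38 tested genes (y axis, ordered by role), in MPA and in vehicle, 3 libraries against 3 each. Lines are ± 1 SE and filled points have an adjusted p under 0.05; SLC2A3 is called in both media, CA12 in vehicle, and PDK3, EPAS1 and ADM in MPA.

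Per kilobase of exon, HIF1A (median 154 CPM per kilobase over the 18 libraries, range 96.7 to 201) and P4HA1 (median 152, range 123 to 181) had the highest medians of the 40, followed by GAPDH (136, range 106 to 176), LDHA (112, range 86.5 to 184), BNIP3L (97.3) and EPAS1 (68.4). The ranges of the first 4 overlapped and their order differed between groups: in promoter cells HIF1A averaged 194 with MPA and 111 with vehicle, LDHA 158 with MPA and 109.7 with vehicle, GAPDH 135 with MPA and 149 with vehicle, and P4HA1 136 with MPA and 152 with vehicle. Within isozyme families the dominant gene was ENO1 over ENO2 (63.8 against 5.70 CPM per kilobase), LDHA over LDHB (112 against 4.27), SLC16A1 over SLC16A3 (40.1 against 0.425) and HK1 over HK2 (16.6 against 5.80), without overlap of the ranges in these pairs. SLC2A3 and SLC2A1 (18.8 and 13.8) overlapped. Exon length was the union over annotated transcripts, which understates genes that use a short transcript.

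The wider pathway was counted over lists of 56 further glycolysis and fuel genes and 50 further HIF pathway genes, of which 40 and 44 were tested. Of the 40 fuel genes, 5 were higher and 6 lower with MPA in promoter cells, 7 and 6 in U1U2 cells, and 2 and 3 in NT cells, or 27.5%, 32.5% and 12.5% of the list in promoter, U1U2 and NT cells against 15.0%, 11.7% and 5.93% of all genes. Of the 44 HIF pathway genes, 6 were higher and 3 lower in promoter cells, 9 and 3 in U1U2 cells, and 6 and 2 in NT cells, or 20.5%, 27.3% and 18.2% against the same shares of all genes. ERRFI1, an inhibitor of the epidermal growth factor receptor, rose to 248, 246 and 241 CPM in promoter MPA libraries, against 46.5, 56.4 and 48.2 CPM with vehicle (2.29 ± 0.09, adjusted p = 7.7e-12), by 2.27 ± 0.09 in U1U2 cells and by 2.14 ± 0.09 in NT cells.

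Among the fuel genes, TXNIP and ARRDC4 code for related arrestins that restrain glucose uptake. TXNIP read 519, 494 and 493 CPM in promoter MPA libraries, against 169, 223 and 150.5 CPM with vehicle, and rose by 1.48 ± 0.15 in promoter cells, 0.97 ± 0.14 in U1U2 cells and 0.52 ± 0.14 in NT cells. The NT call of TXNIP was lost without any 1 of the NT libraries other than MPA replicate 2 (adjusted p up to 0.222). ARRDC4 read 66.9, 66.8 and 67.7 CPM in promoter MPA libraries, against 27.2, 34.3 and 25.8 CPM with vehicle, and rose by 1.21 ± 0.12 in promoter cells and 1.01 ± 0.12 in U1U2 cells. The transporter genes SLC2A12 (GLUT12) and SLC16A6 fell in all 3 lines: SLC2A12 by 1.21 ± 0.20, 1.19 ± 0.20 and 0.86 ± 0.20, and SLC16A6 by 1.85 ± 0.33, 1.43 ± 0.36 and 2.31 ± 0.38 in promoter, U1U2 and NT cells. SLC16A6 stood at 0.753, 1.37 and 1.13 CPM in promoter MPA libraries and 2.92, 3.77 and 5.04 CPM with vehicle. In NT cells the SLC2A12 call was lost without vehicle replicate 2 or MPA replicate 1 or 2, and in U1U2 cells the SLC16A6 call without vehicle replicate 1 or MPA replicate 1 or 3. HKDC1, a hexokinase-like gene, was near its detection limit at 0.0753 to 0.753 CPM and fell by 1.98 ± 0.44 in promoter cells and 1.37 ± 0.39 in U1U2 cells, the U1U2 call being lost when vehicle replicate 2 or 3 or MPA replicate 1 or 3 of that line was left out.

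**Figure D5:**
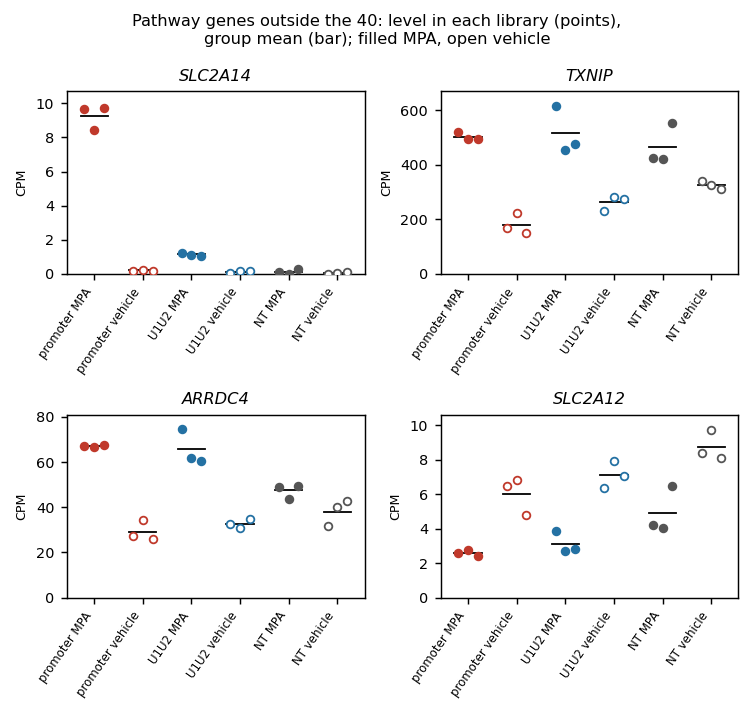
Normalised level (CPM, y axis from 0) of SLC2A14, TXNIP, ARRDC4 and SLC2A12 in each of the 18 libraries by line and treatment (x axis); bars are group means of 3 libraries, filled points MPA and open points vehicle. SLC2A14 is at 8.45 to 9.71 CPM in promoter MPA libraries and at most 1.22 CPM in all other libraries.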

How the data were processed

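The deposited values are unnormalised counts of reads per gene, 1 column for each of the 18 libraries; STAR 2.6.0c, edgeR 4.2.2, R 4.4.1 and the build hg38 are named per the submitters' processing notes, while the read counter, strand setting and annotation are not given in the sources used here. Libraries were poly(A)-selected and stranded per the labels' protocols. A second deposited table of log2 CPM was not used. Genes were filtered with filterByExpr (minimum count 10) and fitted in edgeR 4.0.16 (R 4.3.3), with TMM factors, 1 term per group over all 18 libraries, 12 contrasts and Benjamini-Hochberg adjustment over 15558 genes; a log2 fold change carries its SE (the fold change divided by the root of F). Ratios used log2 of (count + 1), with exact permutation in Python 3.11.15. Alternatives were DESeq2 1.42.0, RLE factors, no filter, only the groups compared, a replicate block, each library left out, and, added after seeing the data, GC and length offsets (14700 genes with both). Positions and exon lengths came from GENCODE 29 (GRCh38), promoter windows from RefSeq (GRCh38.p14). The 40 genes, the pathway lists and the pairs were chosen with earlier results of these data known. Per-library values are given for the members called with MPA or between lines in vehicle and for the partners EPAS1, ENO1, LDHB and PDK1; the other partners are given by their calls or ranges; listed genes outside the 40 are named where called with an absolute log2 change of at least 1 with MPA, apart from a result that is not reported here. The labels put all 18 libraries in 1 batch, so each comparison lies within it. Replicates differed beyond sampling noise in every pair. The fits were tested on simulated data.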

Additional observations from a re-analysis of the deposited data

Results flagged for a closer look

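TXNIP and ARRDC4, related arrestin genes of the wider fuel list, passed the direct test in edgeR of a difference between lines in the MPA response, which none of the 40 genes did. The MPA response of TXNIP was larger in promoter than in NT cells by 0.9545 ± 0.2027 on the log2 scale (adjusted p = 0.0202). In MPA it read 519, 494 and 493 CPM in promoter libraries and 424, 422 and 553 CPM in NT libraries, which overlap, and in vehicle 169, 223 and 150.5 CPM in promoter libraries and 339, 325 and 311 CPM in NT libraries, which do not. The TXNIP difference missed the threshold when any of several single libraries was left out, NT vehicle replicate 2, NT MPA replicate 1 or 2, promoter vehicle replicate 1 or any promoter MPA library (adjusted p 0.0504 to 0.0791). For ARRDC4 the difference was 0.8976 ± 0.1694 (adjusted p = 0.00961). ARRDC4 stood at 66.9, 66.8 and 67.7 CPM in promoter MPA libraries and 27.2, 34.3 and 25.8 CPM in promoter vehicle libraries, and at 49.1, 43.7 and 49.5 CPM in NT MPA libraries and 31.6, 39.9 and 42.6 CPM in NT vehicle libraries.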

How the results depend on the processing

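No call of the 40 genes changed direction under any alternative run. Of 32 calls, 17 passed under all alternatives and 15 were lost at least once. All 14 isozyme ratios kept their direction and side of the threshold in the alternatives run for ratios, among them each library left out. The ratios were formed from counts, and the GC and length offsets were not applied to them. Calls in MPA against vehicle in NT cells (1) were 5 without the filter, 0 with only the groups compared, 2 with DESeq2 and 5 with GC and length offsets. Calls over all genes there (922 of 15558) were 1026 of 40165, 491 of 14036, 1038 of 15246 and 1326 of 15558 in that order. In vehicle, promoter minus NT (2) gave 8, 1, 4 and 6 under the same settings. Over all genes it (1050 of 15558) gave 1446 of 40165, 435 of 14087, 1308 of 15246 and 1635 of 15558. U1U2 minus NT in vehicle (0) gave 1 without the filter (808 of 40165 over all genes). Promoter minus U1U2 in vehicle (0) gave 2 with DESeq2 (258 of 14468 over all genes) and 2 with the offsets (243 of 15558). In MPA, U1U2 minus NT (1) gave 0 with only the groups compared (85 of 14565 over all genes) and 2 with the offsets (421 of 15558). Promoter minus U1U2 in MPA (1) gave 0 with only the groups compared (16 of 14636 over all genes) and 2 with DESeq2 (86 of 16804). The promoter minus NT difference in response (0) gave 6 without the filter, 4 with DESeq2 and 2 with the offsets. Over all genes these settings gave 758 of 40165, 468 of 12910 and 444 of 15558. The causes were not tested. The losses named by library cover the leave-one-out fits only. Over 12 alternatives, the MPA calls of PFKM and KDM3A in U1U2 cells were lost in 5 each. That of PFKFB3 in promoter cells was lost in 8. In MPA, the promoter minus NT calls of PDK3 and ADM were lost in 5 each. SLC2A3 in MPA was lost in 4 for U1U2 minus NT and in 6 for promoter minus U1U2. Over leave-one-out fits, MPA calls ran from 1 to 4 in NT, 6 to 10 in U1U2 and 8 to 15 in promoter cells. Over all genes (15860 to 15911 tested) they ran from 612 to 972, 1267 to 1921 and 1565 to 2365 in that order. Calls between lines ran from 0 to 1 (U1U2 minus NT) and 2 to 10 (promoter minus NT) in vehicle, and from 0 to 2 (U1U2 minus NT), 2 to 4 (promoter minus NT) and 0 to 1 (promoter minus U1U2) in MPA, and for the promoter minus NT response from 0 to 2. Over all genes the vehicle calls ran from 23 to 639 and 472 to 1347 in that order. The MPA calls over all genes ran from 154 to 214, 390 to 490 and 15 to 40, and those for the response from 116 to 271. Same-numbered replicates did not deviate together (correlations of -0.348 to 0.199, 2 of 9 over 0.1). Of the MPA libraries, 2 of 9 correlated best with their own number. These deviations include each library's trend with GC content, so the check cannot exclude that equal numbers mark shared cultures. The main fit did not pair the samples. With a replicate block the PFKFB3 call in promoter cells was lost (adjusted p = 0.0585), as was the TXNIP difference in response (adjusted p = 0.0515); the counts stayed within 1.5 times. EGLN1, EGLN3, CA9, ALDOA and ANKRD37 had few counts a library, which limits their precision; why they were low was not tested. Library-wise correlation of level with GC content ran from -0.42 to 0.48 and varied within groups.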
